A study of Mus musculus with 6 samples.

Results

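The genes described here are 10 transcripts by which macrophages and other myeloid leukocytes are recognized in whole pancreas RNA. They were chosen by name. Of these, 8 were grouped as myeloid (Itgam, Emr1, Csf1r, Cd68, Cd14, Lyz2, Tyrobp and Laptm5) and 2 mark leukocytes of every lineage (Ptprc and Coro1a). Laptm5, counted with the myeloid genes below, is made by blood cells in general. All 10 are among the 10245 genes of the table, which holds a normalized read count for every gene in 6 RNA-seq libraries, each from the pancreas of a different mouse. The 3 control mice were Ptf1a CreERT/+, aged 4 months, and the 3 Ptf1a cKO mice were Ptf1a CreERT/lox, aged 5 months. All 6 mice received 3 daily doses of tamoxifen (TM) at 0.25 mg/g and were killed at 14 days. CreERT sits in the Ptf1a locus itself, so that every mouse, controls included, carried a single intact Ptf1a allele before TM. Recombination is driven by the Ptf1a promoter, which is active in acinar cells, so that the deletion was directed at acinar cells and not at leukocytes. Age followed genotype and the 2 cannot be told apart. Sex did not follow it, since each group held 1 male and 2 females.

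Macrophages live in the connective tissue and around the lobules of the healthy pancreas and become more numerous when acinar tissue is injured or remodelled. They depend on colony stimulating factor 1 acting on its receptor Csf1r. They bind bacterial products through Cd14, attach through the integrin Mac-1, whose alpha chain is encoded by Itgam, signal through adaptors such as Tyrobp that carry a tyrosine activation motif (ITAM), and digest what they engulf in lysosomes rich in Cd68 and lysozyme. The transcription factor PU.1 binds purine-rich sites in the promoters of many of these genes. Whole-tissue RNA reports the sum over all cells. More myeloid cells, more of a transcript per myeloid cell and a lower acinar share of the tissue therefore cannot be told apart.

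PU.1 sites contain a core of 6 letters, GAGGAA, which reads TTCCTC on the other strand. RefSeq promoter sequences of GRCm38.p6 were at hand for 6 of the 10 genes, and the 250 bases before the annotated start were searched on both strands. The core was present in 4 of these 6 genes, and in 25.9% of 27025 genes with such a window. Itgam (chr7:128062390-128062639, plus strand) holds it 84 and 15 bases before its start. Laptm5 (chr4:130913066-130913315, plus strand) holds it 38 bases before, Cd68 (chr11:69666171-69666420, minus strand) 225 bases before and Ptprc (chr1:138175306-138175555, minus strand) 158 bases before its start. A second Ptprc window and both windows of Coro1a do not contain these letters, and the Lyz2 window has instead the 6 letters TGTGGT of the RUNX core on one strand, found in 15.9% of genes. The 4 windows that hold the PU.1 core are shown, 1 for each of these genes. The capitals mark the core on either strand, and a match is a description of the letters, not of binding.
Itgam: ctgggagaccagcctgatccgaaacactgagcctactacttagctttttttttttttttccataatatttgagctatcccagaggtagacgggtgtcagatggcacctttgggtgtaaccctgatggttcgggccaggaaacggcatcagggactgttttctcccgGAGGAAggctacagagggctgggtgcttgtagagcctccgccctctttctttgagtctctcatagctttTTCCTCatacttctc
Laptm5: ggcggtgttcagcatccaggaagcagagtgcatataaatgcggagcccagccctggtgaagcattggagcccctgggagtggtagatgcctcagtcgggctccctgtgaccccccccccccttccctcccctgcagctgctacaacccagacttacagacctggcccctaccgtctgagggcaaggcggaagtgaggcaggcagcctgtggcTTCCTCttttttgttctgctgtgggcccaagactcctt
Cd68: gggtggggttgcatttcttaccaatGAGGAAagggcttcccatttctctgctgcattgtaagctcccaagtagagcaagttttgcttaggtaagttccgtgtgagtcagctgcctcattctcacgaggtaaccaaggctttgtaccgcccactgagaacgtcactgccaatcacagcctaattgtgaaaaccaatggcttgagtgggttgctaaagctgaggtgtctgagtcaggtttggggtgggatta
Ptprc: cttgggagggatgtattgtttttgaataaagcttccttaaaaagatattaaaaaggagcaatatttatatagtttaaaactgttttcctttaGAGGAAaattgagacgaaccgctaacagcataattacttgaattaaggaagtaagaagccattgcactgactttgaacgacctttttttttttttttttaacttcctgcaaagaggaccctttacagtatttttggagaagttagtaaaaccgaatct

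The libraries carried the labelled genotype. Ptf1a was at 566, 601 and 652 normalized counts in the control pancreata and at 19.8, 70.1 and 10.2 in the Ptf1a cKO pancreata, a log2 fold change of -4.41. Library totals over genes, in the same units, were 17949889 to 21175836 in control and 5527104 to 8981107 in Ptf1a cKO, while the median gene was at 125 to 129 in all 6, which is the scaling that the deposited values carry. One Ptf1a cKO library, replicate 3, stood apart for part of the leukocyte transcripts. Ptprc was at 419 normalized counts there, where no other library exceeded 86.6, and Coro1a at 327, where no other exceeded 80.6. In the same library the B cell genes Cd79b and Cd22 were at 94.3 and 126 normalized counts, where no other exceeded 7.94. Glycam1, a product of lymph node venules, was at 356 where no other exceeded 2.25. No gene of the table has a mean over the 6 libraries under 16.8. Cd79b, Cd22 and Glycam1 met that only through replicate 3, so that their excess there followed from the minimum. The changes of the 10 genes are given with and without that library.

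Each of the 10 genes had its 3 highest values in the 3 Ptf1a cKO pancreata. The ratio of the group means ran from 2.08 for Csf1r to 4.39 for Ptprc. In a linear model over all genes (limma, Benjamini-Hochberg adjustment, threshold 0.05, on log2 of the normalized count plus a pseudocount of 3.41) 9 of the 10 rose, that is all 8 myeloid genes and Coro1a, and Ptprc did not pass. Among all genes analysed, 17.1% rose, and 26.5% were higher in all 3 Ptf1a cKO libraries than in all 3 control libraries. The median log2 fold change was 1.40 for the 10 genes and 1.33 for the 8 myeloid genes, against 0.036 for all genes. Without Ptf1a cKO replicate 3, 6 of the 10 genes rose, where 11.5% of all genes did. The median of the 10 was then 0.94 against 0.026 for all genes. For a single gene, an exact permutation test of 3 against 3 mice gives a two-sided p of 0.10 at the least. Every one of the 10 reached that value, as does any gene whose groups do not overlap.

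**Figure D1:**
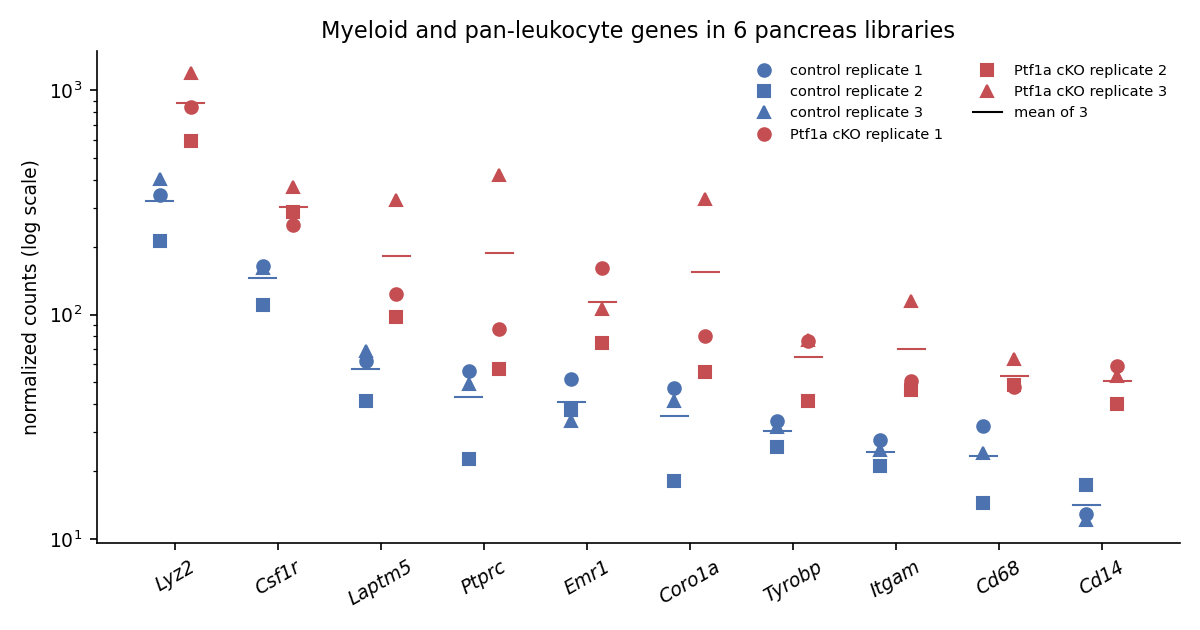
Normalized counts (vertical axis, log scale) of the 10 genes in 3 control (blue) and 3 Ptf1a cKO (red) pancreata, 1 point per mouse with its replicate number as the marker shape and the mean of each group as a line. No blue point reaches the lowest red point of its gene, and the triangles of Ptf1a cKO replicate 3 stand far above the other red points for Ptprc, Coro1a and Laptm5.

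Csf1r, the tyrosine kinase receptor for CSF1 and IL-34 on which tissue macrophages depend, was at 164, 110 and 161 normalized counts in the controls and at 250, 287 and 371 in the Ptf1a cKO pancreata. The groups were well apart and the 3 Ptf1a cKO values lay close together. It changed by 1.05 ± 0.19 on the log2 scale (SE, adjusted p = 0.00352, limma) and 0.89 without replicate 3 (adjusted p = 0.0115, limma). Csf1r overlaps Hmgxb3 on the opposite strand, and 17.7% of its 50-base windows are shared with that gene. The use of strand in counting is not given in the sources used here, so that reads there could not be assigned with certainty. Hmgxb3 itself was at 159 ± 9.57 and 150 ± 11.4 normalized counts in control and Ptf1a cKO (SD, n = 3 each; log2 fold change -0.09, adjusted p = 0.594, limma).

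Among 9 genes of the CSF family and its receptors, 4 were analysed and 2 rose, Csf1r and Csf2ra, both also without replicate 3. Outside Csf1r 1 of 3 rose. Over all genes 17.1% rose, and 11.5% did without replicate 3. Csf2ra, the ligand-binding chain of the GM-CSF receptor, changed by 1.17 ± 0.29 (adjusted p = 0.0138, limma). Its partner chain Csf2rb had 1.32 ± 0.63 (adjusted p = 0.136), with a control mean of 10.9, under the lowest gene mean of the table, 16.8. The ligand Csf1, which is made by stromal and other cells, was at 61.3, 50.3 and 66.2 in the controls and 58.2, 88.2 and 102 in the Ptf1a cKO pancreata, where the groups overlapped (0.43 ± 0.21, adjusted p = 0.143).

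Emr1, which encodes the F4/80 antigen of mature mouse macrophages, was at 51.8, 37.4 and 33.6 normalized counts in the controls and at 161, 74.4 and 106 in the Ptf1a cKO pancreata. Its highest value was in replicate 1, and replicate 3 was at 0.903 times the mean of the other 2. The log2 fold change of 1.36 ± 0.27 (SE, adjusted p = 0.00514, limma) was 1.37 without replicate 3 (adjusted p = 0.0157). Emr1 was thus the 1 gene of the 10 whose change did not shrink when that library was left out.

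Cd14, the surface receptor that hands lipopolysaccharide to Toll-like receptor 4, had the largest change among the 8 myeloid genes. It was at 12.8, 17.3 and 12.1 normalized counts in the controls and at 59.1, 39.8 and 53.3 in the Ptf1a cKO pancreata, so that the groups were well apart and replicate 3 was within the range of the other 2. Its log2 fold change was 1.62 ± 0.27 (adjusted p = 0.00211, limma) and 1.58 without replicate 3 (adjusted p = 0.00754). No gene of the table has a mean over the 6 libraries under 16.8, and the control mean of Cd14, 14.1 ± 2.82 (SD, n = 3), lies below that, so that a gene at this level in every library would be under the minimum, and the change of Cd14 is read with that condition.

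Of 15 genes of the signaling chain that Cd14 feeds, 11 were analysed, and Cd14 was the single one that rose. Irak1, a kinase of the Toll-like receptor cascade, fell by 0.85 on the log2 scale (SE 0.13, adjusted p = 0.00128, limma), from 1759, 1857 and 2012 to 1028, 1161 and 941. Tlr2, a receptor that also pairs with Cd14, was at 48.6, 50.0 and 40.2 in the controls and 33.9, 21.9 and 28.9 in the Ptf1a cKO pancreata, and fell by 0.66 (SE 0.22, adjusted p = 0.0475), which did not pass without replicate 3 (adjusted p = 0.0790). Over all genes 17.1% rose and 16.8% fell. The adaptor Myd88 had 0.41 ± 0.16 (adjusted p = 0.0732), and the median of the 11 genes was 0.055.

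Itgam, the alpha M chain of the integrin Mac-1 on macrophages, monocytes and neutrophils (CD11b), was at 27.7, 21.1 and 24.8 normalized counts in the controls. In the Ptf1a cKO pancreata it was at 50.6, 46.1 and 114. The first 2 of these lie close together and replicate 3 was 2.37 times their mean. The log2 fold change was 1.29 ± 0.32 (adjusted p = 0.0146, limma), and 0.89 without replicate 3 (adjusted p = 0.0264), and it did not pass without control replicate 2 (1.20, adjusted p = 0.0510). In a later annotation than the one behind these values, GENCODE M21, 72.4% of the 50-base windows of Itgam also belong to the overlapping gene model Gm49368.

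Itgb2, the beta 2 chain with which the Itgam product pairs, had the opposite sign. It was at 169, 132 and 131 normalized counts in the controls and at 73.8, 78.4 and 160 in the Ptf1a cKO pancreata. Replicates 1 and 2 were below every control and replicate 3 was among them, at 2.10 times the mean of the other 2. The log2 fold change was -0.53 ± 0.27 and did not pass (adjusted p = 0.149, limma). Without replicate 3 it was -0.88 and passed (adjusted p = 0.00606). Of 10 leukocyte integrin genes and their partners, 7 were analysed and Itgam was the single one that rose. Outside Itgam none of 6 rose, where 17.1% of all genes did. All 7 were at least 2 times higher in replicate 3 than the mean of replicates 1 and 2, against 2.91% of all genes. Itgal and Itga4, alpha chains used chiefly by lymphocytes, had replicate 3 ratios of 5.03 and 5.51 and did not pass (adjusted p = 0.204 and 0.155). Itga4 and Itgb7 met the lowest gene mean of the table, 16.8, only with replicate 3.

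Tyrobp, the ITAM adaptor DAP12 through which Trem2 and related receptors signal, was at 33.4, 25.8 and 31.5 normalized counts in the controls and at 76.2, 41.4 and 77.1 in the Ptf1a cKO pancreata. Replicate 2 lay close to the controls, at 1.37 times their mean, while replicates 1 and 3 were at 2.52 and 2.55 times. Tyrobp rose by 0.98 ± 0.26 (adjusted p = 0.0177, limma), and 0.83 without replicate 3, where it no longer passed (adjusted p = 0.0645), nor did it without control replicate 2 or Ptf1a cKO replicate 1 (adjusted p = 0.0623 and 0.0698). Of 18 ITAM adaptors, their receptors and Syk, 5 were analysed, of which Tyrobp and the phospholipase Plcg2 (1.08 ± 0.33, adjusted p = 0.0315) rose, and neither passed without replicate 3. Outside Tyrobp 1 of 4 rose, where 17.1% of all genes did. The Fc receptor gamma chain Fcer1g showed the same dip in replicate 2, at 25.5, 25.6 and 21.2 in the controls and 84.2, 23.8 and 58.4 in the Ptf1a cKO pancreata, and did not pass (adjusted p = 0.0864).

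Lyz2, lysozyme M, a secreted and lysosomal enzyme of macrophages and neutrophils, was the most abundant of the 10 transcripts. It was at 343, 214 and 403 normalized counts in the controls and at 847, 597 and 1195 in the Ptf1a cKO pancreata. The groups were apart, and replicate 3 was 1.65 times the mean of the other 2. Lyz2 rose by 1.44 ± 0.28 (adjusted p = 0.00455, limma) and 1.19 without replicate 3 (adjusted p = 0.0124). The close copy Lyz1, which marks Paneth cells of the gut, shares 15.4% of the 50-base windows of Lyz2, and reads in these could belong to either gene. Lyz1 was not analysed here.

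Cd68, a glycoprotein of macrophage late endosomes and lysosomes, was at 32.0, 14.4 and 24.2 normalized counts in the controls. In the Ptf1a cKO pancreata it was at 47.4, 48.5 and 63.4, with a mean of 53.1 ± 8.92 (SD, n = 3), which was the narrowest spread of the 10 in relation to the mean. Cd68 rose by 1.11 ± 0.28 (adjusted p = 0.0160, limma), and without replicate 3 it was 0.99 and no longer passed (adjusted p = 0.0546).

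Laptm5, a lysosomal membrane protein of blood cells in general, was at 62.3, 41.2 and 68.8 normalized counts in the controls and at 124, 97.5 and 325 in the Ptf1a cKO pancreata. Replicate 3 was 2.93 times the mean of the other 2, the largest such ratio among the 8 myeloid genes. Laptm5 rose by 1.44 ± 0.39 (adjusted p = 0.0202, limma) and 0.93 without replicate 3 (adjusted p = 0.0224). It did not pass without control replicate 1 or control replicate 2 (adjusted p = 0.0520 and 0.0742).

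The lysosomal and oxidase genes of phagocytes, form a list that includes Cd68, Lyz2 and Laptm5. Of 14 genes, 10 were analysed, 9 rose and none fell, with a median of 1.37, where 17.1% of all genes rose. Outside Cd68, Lyz2 and Laptm5, 7 were analysed and 6 rose. One of the 9, Ncf1, has a control mean under 16.8, the lowest gene mean of the table, and is read with the same condition as Cd14. Without replicate 3, 4 of the 10 rose, where 11.5% of all genes did. Cyba, the smaller chain of the phagocyte oxidase membrane component, was at 57.7, 59.2 and 26.7 in the controls and 163, 140 and 169 in the Ptf1a cKO pancreata, and changed by 1.72 ± 0.26 (adjusted p = 0.00148, limma) with and by 1.67 without replicate 3. The pore-forming protein Mpeg1 rose by 1.59 ± 0.35 (adjusted p = 0.00888) and the lysosomal protease Ctss by 1.30 ± 0.42 (adjusted p = 0.0411, and 0.132 without replicate 3). Acp5 did not pass (adjusted p = 0.0670).

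Ptprc, the receptor tyrosine phosphatase CD45 carried by all nucleated blood cells, was at 56.2, 22.7 and 49.2 normalized counts in the controls and at 86.6, 57.0 and 419 in the Ptf1a cKO pancreata. The lowest Ptf1a cKO value was just above the highest control value, and replicate 3 was 5.83 times the mean of the other 2. The log2 fold change of 1.60 ± 0.63 did not pass (adjusted p = 0.0772, limma). Without replicate 3 it was 0.76 (adjusted p = 0.156), and the single library whose omission let Ptprc pass was Ptf1a cKO replicate 2 (2.17, adjusted p = 0.0151).

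Coro1a, an actin regulator of leukocytes, was at 47.0, 18.1 and 41.2 normalized counts in the controls and at 80.6, 55.5 and 327 in the Ptf1a cKO pancreata. Its pattern was that of Ptprc, with replicate 3 at 4.81 times the mean of the other 2. The log2 fold change of 1.69 ± 0.58 was just past the threshold (adjusted p = 0.0491, limma), and 0.95 without replicate 3 was not (adjusted p = 0.0950). It passed in 1 of the 6 fits that left out a single library, the one without Ptf1a cKO replicate 2, and without control replicate 2 its adjusted p was 0.157. Of 17 actin regulators of leukocytes, 15 were analysed and 8 rose, 6 without replicate 3, where 17.1% and 11.5% of all genes did. Those 6 include Lsp1 (1.46 ± 0.28, adjusted p = 0.00427) and Wipf1 (1.21 ± 0.29, adjusted p = 0.0118), which bind actin or its nucleation factors. Of the 8, Vav1 and Hcls1 have control means under 16.8, the lowest gene mean of the table, and are read with the same condition as Cd14. The related Coro1b, Coro1c and Coro7, which most cell types make, had changes of 0.24, -0.17 and -0.13, none past the threshold (adjusted p = 0.240, 0.284 and 0.512).

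Around Ptprc, 8 of 14 genes of CD45 and the kinases and phosphatases that act next to it were analysed. Outside Ptprc these are 7, of which 2 rose and 1 fell, where 17.1% of all genes rose and 16.8% fell. Csk, which holds Src kinases inactive, rose by 0.47 ± 0.16 (adjusted p = 0.0442, limma) and Lyn, a Src kinase of myeloid and B cells, by 0.67 ± 0.20 (adjusted p = 0.0290), and neither passed without replicate 3. Fyn, a Src kinase of many tissues, went from 274, 288 and 364 to 76.0, 112 and 107 and fell by 1.62 (SE 0.17, adjusted p = 2.81e-04).

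**Figure D2:**
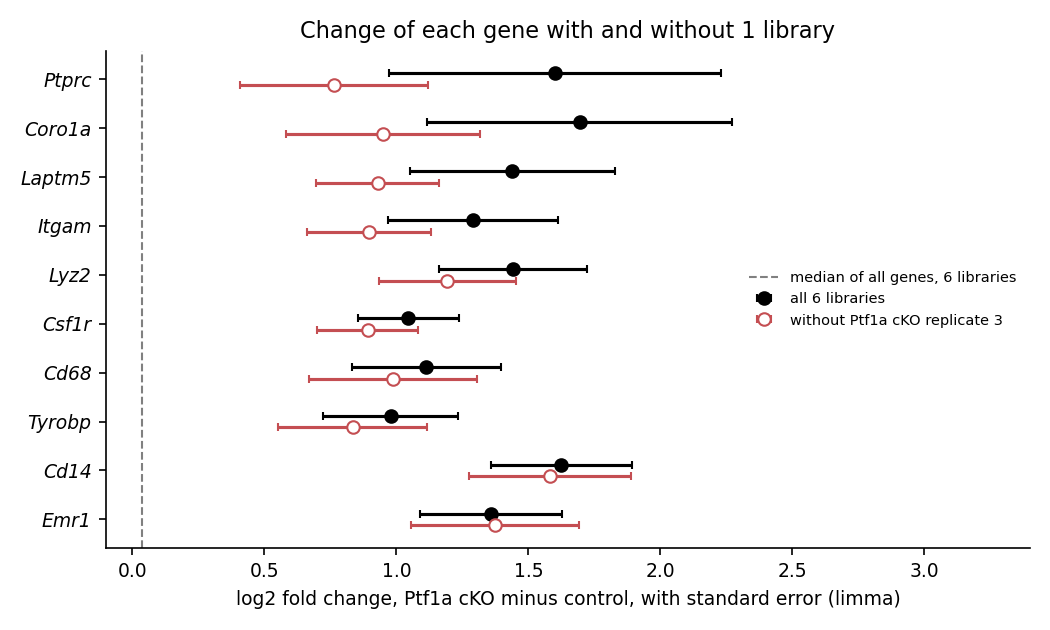
Log2 fold change between Ptf1a cKO and control (horizontal axis, with the standard error of the limma fit) of the 10 genes over all 6 libraries (black) and without Ptf1a cKO replicate 3 (red, open), with the median of all genes as a dashed line. All 20 points lie to the right of that line, and the gap between the colours is smallest for Emr1 at the foot and widest for Coro1a and Ptprc at the head.

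The 10 genes thus shared a direction and differed in how much of the change rested on 1 mouse. Replicate 3 was at least 2 times the mean of the other Ptf1a cKO libraries for 4 of them, Ptprc, Coro1a, Laptm5 and Itgam, against 2.91% of all genes, and its ratio for the remaining 6 lay between 0.903 and 1.65. The 2 pan-leukocyte genes together summed to 167, 112 and 746 normalized counts in the 3 Ptf1a cKO libraries, and the 8 myeloid genes to 1616, 1232 and 2305. Replicate 3 was the highest of all 6 libraries for 8 genes and replicate 1 for Emr1 and Cd14. Ptf1a cKO replicate 2 was the lowest of its group for 8 genes, and control replicate 2 was the lowest of the 6 for 8 genes.

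Several lymphocyte, lymph node and fat genes were also highest in replicate 3. Among all genes analysed 17.1% rose in Ptf1a cKO. In replicate 3, 2.91% of all genes were at least 2 times the mean of replicates 1 and 2. Of 3 T cell genes analysed among 17, Cd4 and Lck were at 78.8 and 93.7 there and at 19.2 or less in the other libraries, while Thy1, which fibroblasts and nerves also make, rose (1.79 ± 0.25, adjusted p = 9.95e-04, limma). Of 5 B cell and plasma cell genes analysed among 12, Cd79b and Cd22 were at 32.9 and 82.0 times the mean of the other 2 in replicate 3 and the remaining 3 at 1.02 to 1.39 times, and Blnk and Igj rose (adjusted p = 0.00591 and 0.0181, limma), Igj not without replicate 3 (adjusted p = 0.0571). The control mean of Blnk, 13.6, is under the lowest gene mean of the table, 16.8, as for Cd14. Cd4, Lck, Cd79b and Cd22 met that minimum only with replicate 3. The T cell genes summed to 35.7 to 69.8 in control and 124 to 358 in Ptf1a cKO. Thy1 alone was at 92.5, 135 and 186 in Ptf1a cKO, while the groups overlapped for Cd4 and Lck. The B cell and plasma cell genes summed to 153 to 272 in control and 270 to 610 in Ptf1a cKO. Sdc1 was the largest of these in every library, at 182, 131 and 191 in control and 175, 230 and 206 in Ptf1a cKO. It did not pass (adjusted p = 0.215, limma). The 2 lymph node genes Glycam1 and Cxcl13, of 8, summed to 2.48 to 11.5 in control and 10.05 to 405 in Ptf1a cKO. Marco, a scavenger receptor of macrophages in the spleen marginal zone, lymph node and peritoneum, was at 121 in replicate 3 and at 4.74 or less elsewhere. Marco and Glycam1 likewise met the minimum only with replicate 3. The 6 fat genes analysed among 8 had a median ratio of 4.41, and their sum ran from 1760 to 2004 in control and from 2164 to 3301 in Ptf1a cKO. Lpl was the largest of them, at 1770, 1590 and 1570 in control and 2339, 1659 and 2008 in Ptf1a cKO. Its groups overlapped, as did those of Adipoq, Plin1, Cidec and Fabp4. Cfd was the single fat gene that rose (adjusted p = 0.00431, limma). Plin1 and Cidec also met the minimum only with replicate 3. In Ptf1a cKO replicate 1, Cd79b, Cd22 and Glycam1 were listed at 0, and in replicate 2 they were at 5.73 or less. Igj was at 62.0 and 130 in these libraries, where no control exceeded 51.4. Cxcl13 was at 10.05 and 54.9, where no control exceeded 11.1. Digestive enzymes and secreted acinar proteins summed to 3615000, 5946400 and 2183900 in Ptf1a cKO replicates 1, 2 and 3, and Ptf1a was also lowest in replicate 3. Of 7 islet genes, 4 were at least 2 times the mean of replicates 1 and 2 there. The 7 islet genes summed to 27180, 5817 and 33247 in Ptf1a cKO replicates 1, 2 and 3, and to 12014, 11369 and 42640 in control. Replicate 2 was thus the lowest of all libraries for islet genes, and replicate 3 was near replicate 1 and below control replicate 3. The part of lymphoid, fat or islet tissue, or of a lower acinar share, in the values of replicate 3 was not tested.

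**Figure D3:**
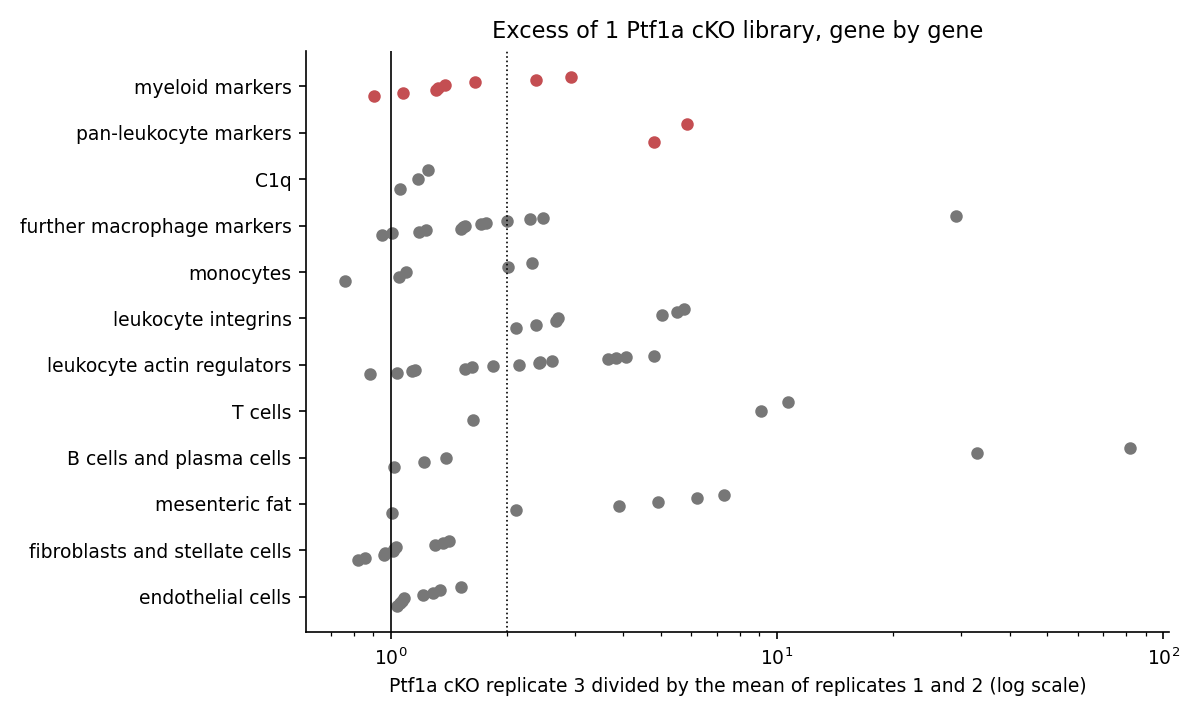
Value of each gene in Ptf1a cKO replicate 3 divided by the mean of replicates 1 and 2 (horizontal axis, log scale, with lines at 1 and 2), for the myeloid and pan-leukocyte marker genes (red) and for lists of other cell types (grey), 1 point per gene. The myeloid markers spread from 0.903 to 2.93 and the C1q genes from 1.06 to 1.24, the pan-leukocyte markers sit at 4.81 and 5.83, and 2 B cell genes lie at 32.9 and 82.0. These 2 B cell genes met the lowest gene mean of the table, 16.8, only with replicate 3.

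Other macrophage genes, outside the 10, were also higher. The 3 C1q chains, which resident macrophages secrete as the recognition unit of the classical complement pathway, all rose, with and without replicate 3. C1qa was at 152, 75.3 and 153 normalized counts in the controls and 349, 218 and 300 in the Ptf1a cKO pancreata (1.21 ± 0.27, adjusted p = 0.00937, limma). C1qb and C1qc changed by 1.50 ± 0.34 and 1.36 ± 0.30, and replicate 3 was within 1.24 times the mean of the other 2 for all 3 chains. Of 30 further macrophage genes, 13 were analysed, 9 rose and none fell, and 6 rose without replicate 3. Over all genes 17.1% rose, and 11.5% did without replicate 3. One of the 9, Ms4a6c, has a control mean under 16.8 and is read as Cd14 is. Folr2 and Mrc1, receptors of resident macrophages, rose by 1.08 ± 0.18 (adjusted p = 0.00230) and 1.05 ± 0.23 (adjusted p = 0.00759). The scavenger receptor Cd163 rose by 0.89 ± 0.19 (adjusted p = 0.00775) and Axl, a receptor for apoptotic cells that fibroblasts also make, by 0.93 ± 0.15 (adjusted p = 0.00184).

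Genes of circulating monocytes and of granulocytes were less covered. The counts of this paragraph stand against 17.1% of all genes that rose and 16.8% that fell. Of 8 monocyte genes, 5 were analysed and F13a1, the clotting factor subunit made by monocytes and macrophages, was the single one that rose (1.24 ± 0.18, adjusted p = 0.00123, limma). Ccr2, the chemokine receptor of recruited monocytes, was at 23.0, 13.1 and 25.0 in the controls and 68.5, 17.0 and 86.0 in the Ptf1a cKO pancreata. Its groups overlapped and it did not pass (1.13 ± 0.51, adjusted p = 0.116). None of 13 neutrophil, 9 NK cell or 7 erythroid genes was analysed here, so that the neutrophil share of Itgam and Lyz2 was not measured. Of 12 eosinophil and mast cell genes only Kit was, which pancreatic cells of other kinds can make, and it rose (1.04 ± 0.14, adjusted p = 7.92e-04). Of 11 dendritic cell genes Clec10a rose and Zbtb46 fell (0.93 and -0.74, adjusted p = 0.0415 and 0.0277), and neither passed without replicate 3.

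Chemokines that attract monocytes were partly higher. Of 16 such genes, 7 were analysed, and Ccl6, Ccl9 and Cxcl16 rose with and without replicate 3, by 1.29 ± 0.31, 1.43 ± 0.29 and 1.10 ± 0.21 (adjusted p = 0.0135, 0.00592 and 0.00454, limma). Over all genes 17.1% rose, and 11.5% did without replicate 3. Cxcl12, a stromal chemokine, fell by 0.63 (SE 0.16, adjusted p = 0.0161). Ccl8 was at 22.6, 3.92 and 11.2 in the controls and 164, 14.0 and 102 in the Ptf1a cKO pancreata and did not pass (2.26 ± 0.78, adjusted p = 0.0508). The control mean of Ccl8, 12.6, is under the lowest gene mean of the table, 16.8.

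Of 10 transcription factors of the myeloid lineage, 8 were analysed, 2 rose and 2 fell, and 6 had a change above 0. Over all genes 17.1% rose and 16.8% fell, so that these counts are near the background. Irf5, a factor of inflammatory gene expression, was at 13.9 ± 1.12 normalized counts in the controls and 37.4 ± 12.6 in the Ptf1a cKO pancreata (SD, n = 3 each), and rose by 1.19 ± 0.31 (adjusted p = 0.0171, limma). Its control mean is under the lowest gene mean of the table, 16.8, and its change carries the same condition as that of Cd14. Maf rose by 0.58 ± 0.18 (adjusted p = 0.0376), and neither passed without replicate 3 (adjusted p = 0.0528 and 0.0961). The gene of PU.1, under its older symbol Sfpi1, was at 12.8, 9.51 and 20.4 in the controls and 28.7, 15.4 and 39.0 in the Ptf1a cKO pancreata, where the groups overlapped (0.79 ± 0.42, adjusted p = 0.170). The control mean of Sfpi1, 14.2, is also under 16.8. Cebpa, which acts in granulocyte and monocyte development and is also made by epithelial and fat cells, went from 488, 484 and 531 to 172, 223 and 189 and fell by 1.35 (SE 0.12, adjusted p = 1.54e-04). Cebpb fell by 0.96 (SE 0.18, adjusted p = 0.00437).

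**Figure D4:**
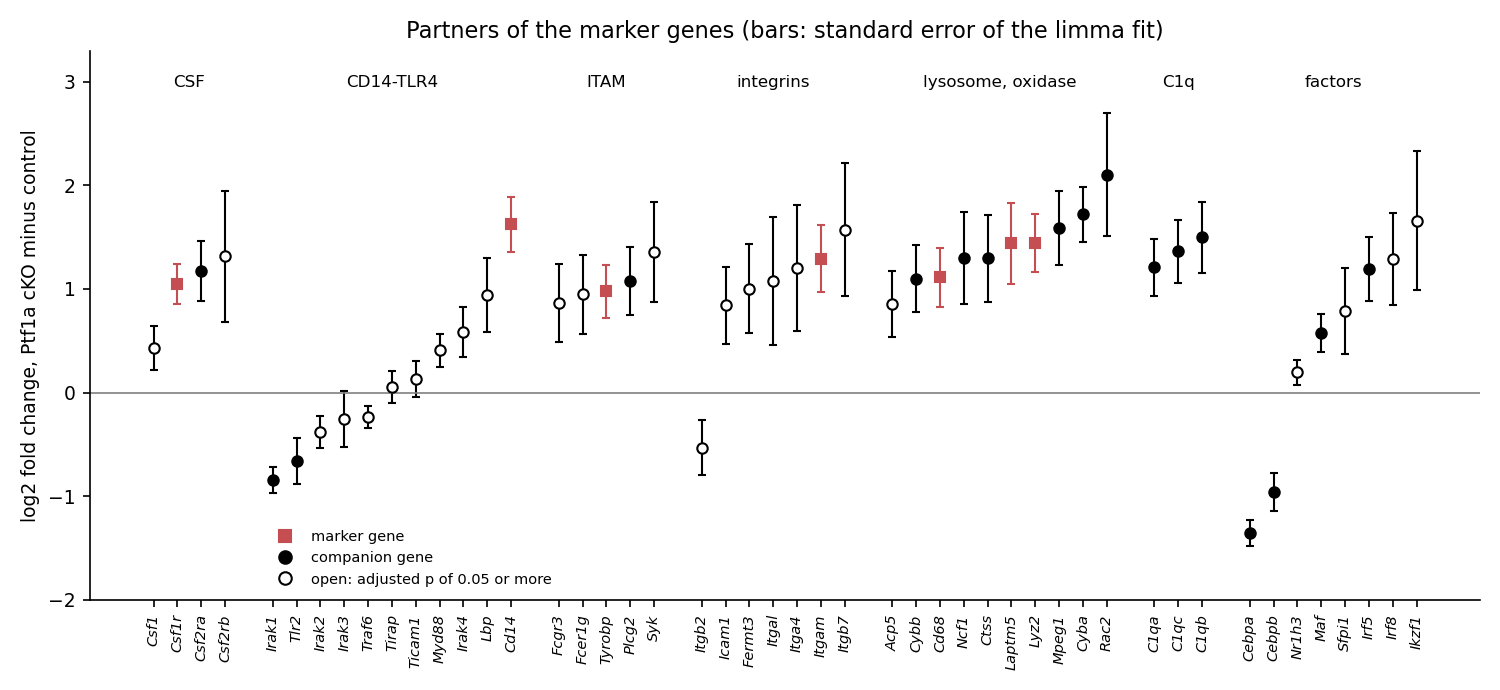
Log2 fold change between Ptf1a cKO and control (vertical axis, bars show the standard error of the limma fit) of the genes analysed in 7 lists of partners, ordered within each list, with the marker genes as red squares and open symbols where the adjusted p was 0.05 or more. Cd14 stands at the head of its list while Irak1 and Tlr2 lie below 0, Itgam and Itgb2 lie on opposite sides of 0, and the C1q and lysosome genes all lie above 0.

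Levels could be compared between genes only per length. Per kilobase of exon (GENCODE M21), the control means were 243 for Lyz2, 45.3 for Tyrobp, 25.1 for Csf1r, 18.7 for Cd68, 15.2 for Laptm5, 12.7 for Coro1a, 12.6 for Emr1, 8.13 for Cd14, 4.88 for Itgam and 2.33 normalized counts per kilobase for Ptprc. From Csf1r to Emr1 each gene overlapped its neighbour in this order over the 3 controls, and the other neighbours did not overlap. In the Ptf1a cKO pancreata Lyz2 was again the highest at 669. The place of Ptprc rests on the length used, since its merged exons cover 18.3 kilobases while its longest coding transcript has 5074 bases.

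The genes most like the 8 myeloid genes were taken as the 10 with the highest Pearson correlation with their mean log2 profile over the 6 libraries. Flt3l and Tbxas1 have control means under 16.8, the lowest gene mean of the table. The 10 include Flt3l (r = 0.998), Ggt5, Prcp, Pfkfb4, 1110051M20Rik, Unc93b1, Psap, Rhog and Tbxas1 (r = 0.992). Over 6 libraries that fall into 2 groups such values are common, and 413 of 10233 genes compared had r above 0.95. Tbxas1, thromboxane synthase of macrophages and platelets, was at 11.5, 7.12 and 9.13 normalized counts in the controls and at 47.8, 28.2 and 55.5 in the Ptf1a cKO pancreata. Flt3l, the growth factor of dendritic cell precursors, went from 15.9 ± 2.74 to 38.4 ± 9.18 (SD, n = 3 each), and Psap, the precursor of lysosomal saposins, from 1185 ± 54.3 to 2262 ± 512.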

How the data were processed

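RNA-seq was made from total RNA of whole pancreas of 6 mice. According to the methods and the submitters' processing notes, the authors aligned reads to mm9 with TopHat2 2.0.4 and counted them per gene with HTSeq 0.6.0. The deposited values are a signal per gene, a normalized read count that need not be whole and from which whole reads could not be recovered, so that no count model was run. The table holds 10245 genes and 3 entries that name no gene (75.7% to 82.6% of each library), which were left out. The study's methods state the aligned reads of each library, but the reads behind a gene's value are unknown here. Values were divided by 13.6, 0.25 was added and log2 taken, and a linear model with a mean-variance trend was fitted to all genes (limma 3.58.1, R 4.3.3, two-sided, Benjamini-Hochberg adjustment, threshold 0.05, mean of at least 0.25 on the divided scale), with no covariate. The fit was tested on simulated data. The genes and lists were chosen with earlier results of these data known, and genes outside them are named by their likeness to the myeloid mean. The spread is that between mice. Alternatives were other pseudocounts, filters, scalings, variance settings, a replicate block, sex as a covariate and leaving out each library. Shared 50-base windows were counted over GENCODE M21 transcripts, and promoter windows come from RefSeq (GRCm38.p6). No coordinates were transferred between builds. A few genes are not reported here.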

Additional observations from a re-analysis of the deposited data

How the results depend on the processing

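All 10 genes stayed above 0, and above the median of all genes, in each of the 19 alternatives in which they were fitted. The number that rose, 9 of 10, was 4 among the 6 genes left by a filter of at least 5 on the mean, 4 with an adjusted p threshold of 0.01, and 5 to 10 when single libraries were left out (5 without control replicate 2, 6 without Ptf1a cKO replicate 3, 10 without Ptf1a cKO replicate 2). The median change of 1.40 lay between 0.94 and 1.66 when Ptf1a cKO replicate 3 or Ptf1a cKO replicate 2 was left out, and was 2.83 with every library scaled to the same total, which moves the median of all genes to 1.49 and makes 98.7% of calls higher instead of 50.4%. With the same total without digestive enzymes it was 1.22, with 29.6% of calls higher. The causes of these differences were not tested. Coro1a is the least stable call, lost in 13 alternatives, among them robust estimation (adjusted p = 0.144, limma) and the sex covariate (adjusted p = 0.0579). Tyrobp and Laptm5 each lost theirs in 4, Itgam and Cd68 in 2. A replicate block called all 10 genes (median 1.40, Ptprc adjusted p = 0.0161, limma), but same-numbered mice shared only a number (correlations of their deviations 0.039, 0.134 and 0.144, and Ptf1a cKO replicate 1 correlated best with control replicate 2), so that no pairing was used. Count models were not run, since whole reads could not be recovered. Age and genotype cannot be told apart, and the 3 mice per group limit precision. The standard errors were widest for Ptprc, Coro1a and Laptm5 (0.63, 0.58 and 0.39). Cd14, Itgam and Cd68, which were at a low level, had 0.27, 0.32 and 0.28.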

Other observations

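Other cell types of the pancreas changed in the same libraries. Over all genes 17.1% rose and 16.8% fell, and 11.5% rose without Ptf1a cKO replicate 3. Of 11 fibroblast and stellate cell genes, 10 were analysed and 9 rose (limma, adjusted p under 0.05), with a median log2 fold change of 1.20, and 7 rose without Ptf1a cKO replicate 3. Their sum was highest in Ptf1a cKO replicate 2, the library in which 8 of the 10 leukocyte genes were lowest in that group. Col1a1, the main chain of type I collagen, was at 229, 216 and 284 normalized counts in the controls and 584, 1419 and 1033 in the Ptf1a cKO pancreata. Of 8 endothelial genes, Vwf was the single one that rose, and the median was -0.09. Of 7 duct cell genes analysed among 8, 4 rose, and of 7 islet genes none passed in either direction. Of 34 digestive enzymes and secreted acinar proteins analysed among 40, 25 fell and 1 rose, with a median of -2.14. Of 8 lymph node stroma genes, Glycam1 and Cxcl13 were analysed, and Cxcl13, a chemokine for B cells, rose (2.04 ± 0.66, adjusted p = 0.0400, limma), from 2.45, 3.57 and 11.1 to 10.05, 54.9 and 49.2, but did not pass without Ptf1a cKO replicate 3 (adjusted p = 0.114). Its control mean, 5.71, is under the lowest gene mean of the table, 16.8, so that it met the table's minimum only with its Ptf1a cKO values.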
